A study of Mus musculus with 4 samples.

Results

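Interferon-stimulated antiviral genes are the genes that cells switch on when interferon reaches its receptors, and here they were followed across the mouse T cell lines TS2 and TS1. The list held 45 genes, chosen by name with earlier results of these data known. A gene was measured where a probe set of the array named it and no other gene, which left 39 of the 45, each with 1 such probe set, among 19938 genes in all. Oas1g, Isg15, Gbp2, Gbp6 and Igtp were named only together with other genes, Ifi44 had no probe set naming it in the annotation table used here, and these 6 are not analysed here. Both lines are described by the labels as derived from CD4+ T lymphocytes and were grown with murine interleukin-9 and no further treatment. Duplicates A and B of each line were read on an array each, so there were 2 TS2 arrays and 2 TS1 arrays, and no strain, genotype or clonal origin is given in the labels. Values are log2 of the RMA intensity, a background-corrected and normalized probe set brightness. Levels of different genes cannot be compared on this scale, since each probe set binds differently.

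Type I interferons act through the receptor chains Ifnar1 and Ifnar2, and interferon gamma through Ifngr1 and Ifngr2. Janus kinases at these receptors activate transcription factors, among them Stat2, which acts with Irf9 at interferon-stimulated response elements, while the gamma receptor also acts through gamma-activated sites. The genes induced in this way cut, edit, trap or unwind viral RNA, hold budding virions at the membrane, or attack the vacuoles of intracellular pathogens, and T cells carry a basal level of many of them.

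T cell identity was uneven on these arrays. Over all genes, limma called 5.05% higher in TS2 and 8.45% higher in TS1. Of 11 measured T cell markers, 3 were called higher in TS2 (Cd3e, Cd247 and Ptprc), 0 were called higher in TS1 and 8 were not called (limma, where 5 and 0 had an unadjusted p under 0.05). Cd4 lay at 5.15 and 5.28 in TS2 and at 5.38 and 5.36 in TS1, and Cd3d, Cd2 and Thy1 stayed between 4.63 and 6.30 on all arrays. Of the markers of other cell types, limma called 0 of 4 B cell, 1 of 6 myeloid (Cd68, higher in TS1), 0 of 4 plasmacytoid dendritic cell, 2 of 4 natural killer cell (Ncr1 higher in TS2, Eomes higher in TS1), 1 of 4 mast cell (Kit), 1 of 4 fibroblast (Pdgfra) and 1 of 2 erythroid markers (Klf1), the last 3 genes higher in TS1. The median intensity of an array lay between 88.6 and 92.5. In these bulk cultures, fewer cells expressing a gene and less RNA per cell cannot be told apart.

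Most of the measured antiviral genes stood higher in TS2 than in TS1, and the distance depended on which TS1 duplicate they were set against. On the 2 arrays of TS2 the median log2 intensity over the 39 genes was 7.94 (TS2 A) and 7.99 (TS2 B), against 6.82 on TS1 A and 6.32 on TS1 B. The median difference of TS2 minus TS1 was 0.65, against 0.01 over all genes. Both TS2 arrays lay above both TS1 arrays for 25 of the 39 genes, an order found in 29.1% of all genes. Both TS1 arrays lay above both TS2 arrays for 4 of the 39 (29.3% of all genes), and for 10 the arrays of the lines overlapped. By limma, with Benjamini-Hochberg adjustment over all 19938 genes and an adjusted p under 0.05, 10 of the 39 were called higher in TS2 and 1 higher in TS1, where the shares of all genes were 5.05% and 8.45%. Without adjustment, 22 and 3 of the 39 had a p under 0.05. In every fit with an array left out, the line left with 1 array adds no spread of its own. Leaving out TS2 A or TS2 B turned the count of 10 into 4 and 6, and leaving out TS1 A or TS1 B into 20 and 7.

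**Figure D1:**
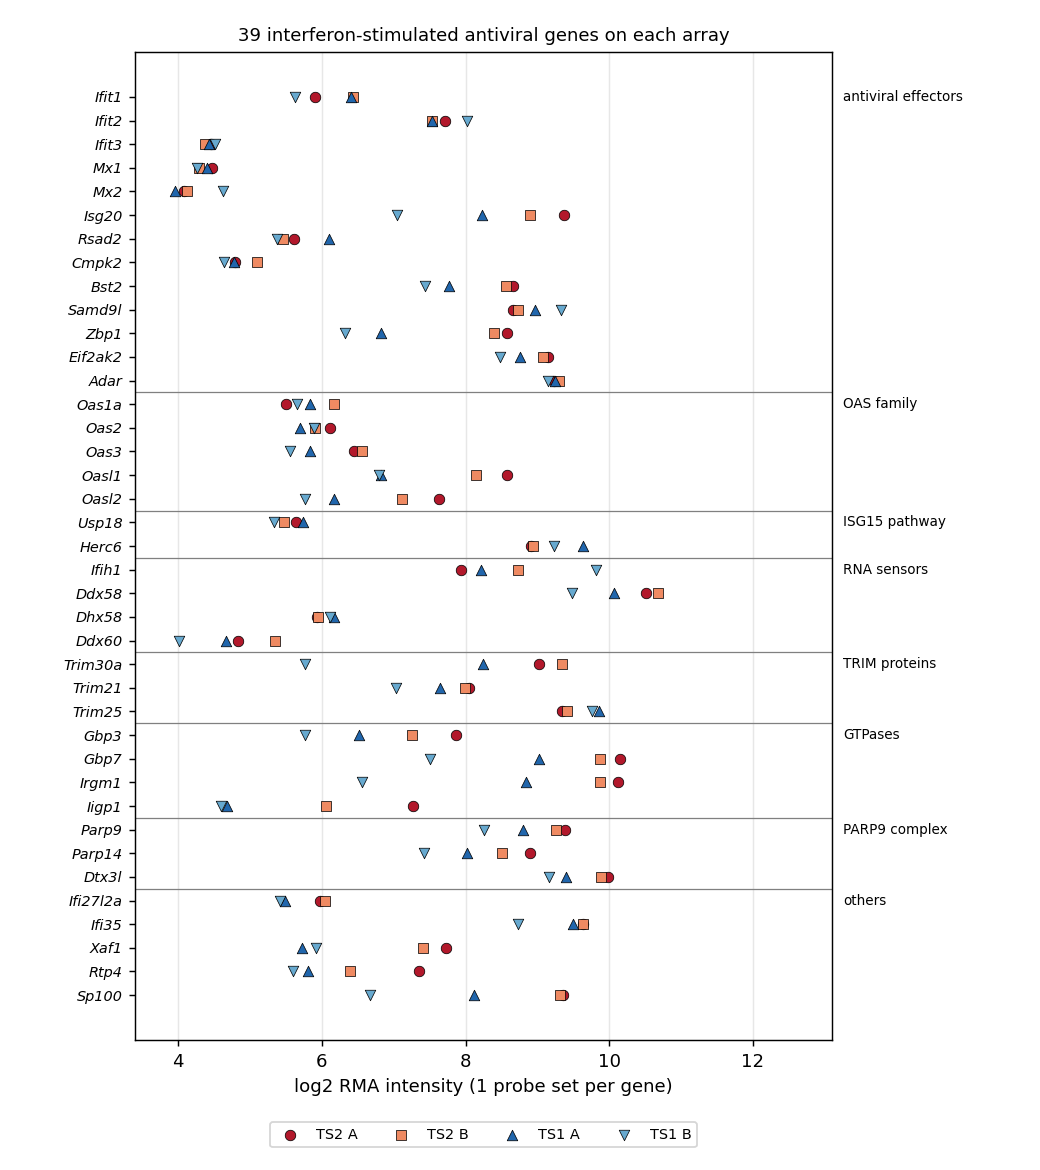
Log2 RMA intensity (horizontal axis) of the 39 measured interferon-stimulated antiviral genes, grouped by role, with 1 symbol for each of the 4 arrays. The 2 TS2 symbols lie to the right of both TS1 symbols for 25 genes, and TS1 B is often the leftmost symbol, as for Trim30a, Irgm1, Gbp7 and Sp100.

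The TS1 duplicates were set against each other array by array, which gives no test because each side is 1 array. TS1 A exceeded TS1 B in 32 of the 39 genes and fell short of it in 7, while it exceeded TS1 B in 44.2% of all genes. The median of TS1 A minus TS1 B was 0.29 over the 39 genes and -0.03 over all genes. At least a 2-fold excess on TS1 A was reached by 5 members, against 0.727% of all genes, and on TS1 B by 1 member, against 0.381% of all genes. With a 1.5-fold minimum the counts were 13 on TS1 A (1.99% of all genes) and 2 on TS1 B (1.55% of all genes).

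The 5 members at least 2-fold higher on TS1 A were Trim30a, Irgm1, Gbp7, Sp100 and Isg20. Trim30a, a ubiquitin ligase that restrains Toll-like receptor signalling, had 9.02 and 9.34 on TS2 A and TS2 B, 8.24 on TS1 A and 5.76 on TS1 B. Irgm1, a GTPase that controls the other immunity-related GTPases, had 10.13 and 9.86 on the TS2 arrays, 8.84 on TS1 A and 6.56 on TS1 B. In both genes TS1 A lay nearer to TS2 than to TS1 B, and TS1 A exceeded TS1 B 5.59-fold in Trim30a and 4.85-fold in Irgm1. Gbp7, a guanylate-binding protein that acts on pathogen vacuoles, had 10.15 and 9.87 on the TS2 arrays, 9.02 on TS1 A and 7.51 on TS1 B, a 2.85-fold difference between the TS1 duplicates. Sp100, a component of nuclear bodies that restrict viral DNA, had 9.36 and 9.32 on the TS2 arrays, 8.11 on TS1 A and 6.67 on TS1 B, a 2.72-fold difference. Isg20, an exonuclease that degrades single-stranded RNA, had 9.37 and 8.89 on the TS2 arrays, 8.23 on TS1 A and 7.04 on TS1 B, a 2.28-fold difference. In all 5 the TS2 arrays were highest, while TS1 B below TS1 A was set by how these members were picked.

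Ifih1, a cytosolic sensor of long double-stranded RNA, ran the other way. It had 7.94 and 8.73 on TS2 A and TS2 B, 8.21 on TS1 A and 9.82 on TS1 B, so TS1 B exceeded TS1 A 3.04-fold and the lines overlapped. Ifit1, which binds foreign RNA caps, had 5.90 and 6.43 on the TS2 arrays, 6.41 on TS1 A and 5.62 on TS1 B. Ifi35, an interferon-induced leucine zipper protein, had 9.63 on each TS2 array, 9.49 on TS1 A and 8.73 on TS1 B. In Ifi35 TS1 A was thus close to the TS2 arrays and TS1 B stood apart below them.

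**Figure D2:**
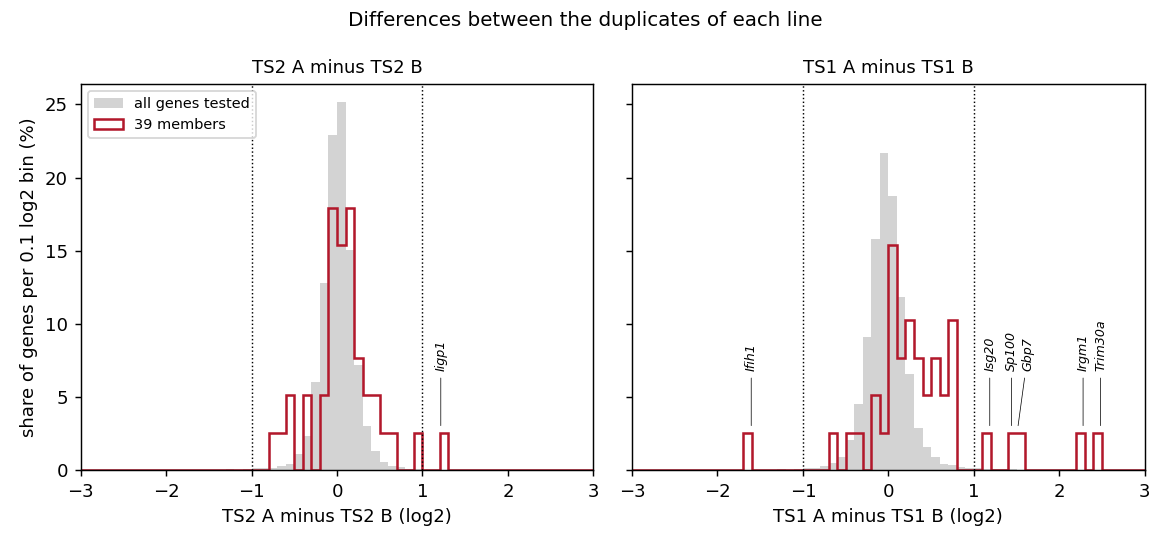
Share of genes (vertical axis, percent per bin of 0.1) by the difference between duplicates on the log2 scale (horizontal axis), for TS2 on the left and TS1 on the right, in grey for all 19938 genes and in red outline for the 39 members. Dotted lines mark a 2-fold difference and the members past it are named. The red outline lies mostly to the right of 0 in TS1, with a median of 0.29 and 7 members to the left. In TS2 it lies around 0, with a median of 0.08.

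The promoters of these genes are shown because Trim30a, Irgm1 and Gbp7 were the 3 members furthest higher on TS1 A and Ifih1 the member furthest higher on TS1 B. Each window runs from 250 bases before to 50 bases after a RefSeq gene start, 5′ to 3′ on the gene's strand, in build GRCm38.p6. Capitals mark matches, on either strand, to the core of an interferon-stimulated response element, GAAA and GAAA separated by 2 bases of any kind. The Trim30a window is chr7:104465144-104465443 (minus strand, the first of its 2 windows), that of Irgm1 chr11:48871371-48871670 (minus strand), that of Gbp7 chr3:142530086-142530385 (plus strand) and that of Ifih1 chr2:62646206-62646505 (minus strand).
Trim30a: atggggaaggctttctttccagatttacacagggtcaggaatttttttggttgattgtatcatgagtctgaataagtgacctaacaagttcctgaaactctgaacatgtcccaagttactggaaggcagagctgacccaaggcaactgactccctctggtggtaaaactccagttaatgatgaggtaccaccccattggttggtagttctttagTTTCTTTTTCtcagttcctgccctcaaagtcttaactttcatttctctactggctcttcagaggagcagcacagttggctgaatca
Irgm1: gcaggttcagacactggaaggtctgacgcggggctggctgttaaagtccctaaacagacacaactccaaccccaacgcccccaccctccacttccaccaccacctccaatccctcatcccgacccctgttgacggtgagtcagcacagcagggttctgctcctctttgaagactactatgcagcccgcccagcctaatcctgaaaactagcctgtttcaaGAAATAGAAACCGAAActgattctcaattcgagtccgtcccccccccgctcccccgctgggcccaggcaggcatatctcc
Gbp7: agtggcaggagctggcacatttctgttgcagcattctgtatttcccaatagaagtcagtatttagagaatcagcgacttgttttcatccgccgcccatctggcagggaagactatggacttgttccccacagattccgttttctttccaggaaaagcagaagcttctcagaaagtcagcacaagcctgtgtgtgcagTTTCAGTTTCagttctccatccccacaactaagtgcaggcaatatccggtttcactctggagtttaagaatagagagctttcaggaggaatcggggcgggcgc
Ifih1: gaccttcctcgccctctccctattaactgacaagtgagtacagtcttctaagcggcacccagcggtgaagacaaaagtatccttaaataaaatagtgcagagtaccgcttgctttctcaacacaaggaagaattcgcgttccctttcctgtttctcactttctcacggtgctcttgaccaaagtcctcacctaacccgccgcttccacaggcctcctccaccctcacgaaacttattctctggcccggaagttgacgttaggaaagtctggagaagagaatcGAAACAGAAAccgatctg

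The matches began at position -36 from the start in Trim30a, at -30 and -24 in Irgm1, where they overlap, at -53 in Gbp7 and at 33, after the start, in Ifih1. Matching letters were present in each of these windows, which were picked for the size of the gap between the TS1 duplicates. Whether the core has a part in that gap was not tested. Windows were found for 33 of the 45 listed genes, and 19 of the 33 (57.6%) held the core in at least 1 window, against 3.99% of 27025 genes. Of the 28 measured genes with a window, 15 (53.6%) held it. The core of a gamma-activated site, TTC and GAA separated by 3 bases, which reads the same on both strands, was found in 9 of the 33 (27.3%), against 9.55% of all genes. Both cores were found in 5 of the 33 (15.2%), against 0.614% of all genes, and they overlapped in Bst2. Sp100 held neither core in its 2 windows, and Isg20 held the gamma-activated core alone, at -73 in the first of its 3 windows. A match describes letters in the window and shows no binding.

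The duplicates of TS2 lay closer together. Of the 39 genes, 24 were higher on TS2 A and 15 on TS2 B, where 53.0% of all genes were higher on TS2 A. The median of TS2 A minus TS2 B was 0.08 over the members and 0.01 over all genes. A 2-fold excess on TS2 A was reached by 1 member (0.150% of all genes), Iigp1, and a 2-fold excess on TS2 B by 0 members (0.466% of all genes). The SD of the difference between duplicates over the members was 0.39 in TS2 and 0.72 in TS1, against 0.25 and 0.28 over all genes.

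TS1 A lay above TS1 B and below both TS2 arrays for 23 of the 39 members, an order found in 14.5% of all genes. The reverse placement, TS1 B above TS1 A and below both TS2 arrays, was found for 2 members, against 14.5% of all genes. Of the 11 T cell markers, 4 had the first placement and 3 the reverse. Ptprc and Cd3e, with large differences between the lines, were among the 4, with small gaps between the TS1 duplicates. Cd247, also called higher in TS2, had the reverse placement, with 6.29 on TS1 A and 6.44 on TS1 B. Ptprc, the leukocyte common antigen, had 11.11 and 10.96 on the TS2 arrays and 4.99 on TS1 B, with TS1 A higher than TS1 B by 0.0072. Cd3e had 12.74 and 12.53 on the TS2 arrays, 6.45 on TS1 A and 6.41 on TS1 B. Cd3g, another chain of the T cell receptor complex, had 10.39 and 11.98 on the TS2 arrays, 10.52 on TS1 A and 6.07 on TS1 B, a far wider gap between the TS1 duplicates. The other 10 T cell markers differed by -0.15 to 0.29 between TS1 A and TS1 B. The summed linear intensity of the 11 T cell markers was 11441 and 12932 on TS2 A and TS2 B, against 1990 and 569 on TS1 A and TS1 B. Cd3g made up most of the gap between the TS1 A and TS1 B sums. Such sums weigh bright probe sets most. The 4 natural killer cell markers summed to 157 and 186 on the TS2 arrays, against 520 and 723 on TS1 A and TS1 B, and the 4 fibroblast markers to 289 and 299, against 334 and 452. The 4 mast cell markers summed to 8751 and 8977 on the TS2 arrays, against 7343 and 8403 on TS1 A and TS1 B. These 3 sums were thus higher on TS1 B than on TS1 A, opposite to the T cell sum. Each of these gaps came mostly from 1 gene, namely Eomes, Pdgfra and Fcer1a in turn. In each of the 3 lists, 1 of the 4 genes was instead higher on TS1 A (Ncr1, Col1a1 and Cpa3). Sums on TS1 A and TS1 B were closer for 4 B cell markers (156 and 165 in TS2, against 161 and 165 in TS1), 6 myeloid markers (316 and 295 in TS2, against 427 and 402 in TS1), 4 plasmacytoid dendritic cell markers (473 and 542 in TS2, against 629 and 688 in TS1) and 2 erythroid markers (133 and 124 in TS2, against 231 and 235 in TS1). The part of these markers in the result was not tested.

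Among the antiviral effectors, limma called 2 of 13 higher in TS2 and 0 higher in TS1, and 4 and 1 had an unadjusted p under 0.05. Together the calls were 2 of 13 genes, where 13.5% of all genes were called in either direction, so the effectors' share was near that background. Zbp1, a sensor of Z-form nucleic acids that triggers cell death, had 8.57 and 8.39 in TS2, against 6.82 and 6.32 in TS1. Its arrays did not overlap, and it was 3.77-fold higher in TS2 (difference 1.91, SE 0.19, adjusted p = 0.00546). Bst2, or tetherin, which holds budding virions at the cell surface, had 8.65 and 8.57 in TS2, against 7.77 and 7.44 in TS1. It was 2.01-fold higher in TS2 (SE 0.14 on the log2 scale, adjusted p = 0.0139), and it missed the threshold once TS2 A or TS2 B was left out (adjusted p = 0.0803 and 0.0639). Isg20 was 2.83-fold higher with all arrays (SE 0.41 on the log2 scale, adjusted p = 0.0812), a difference that was 2.09 on the log2 scale without TS1 A (adjusted p = 0.0174) and by 0.91 without TS1 B (adjusted p = 0.106).

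The other effectors were not called. Mx1 and Mx2, dynamin-like GTPases that block viral nucleocapsids, lay between 3.96 and 4.62 on all arrays. Ifit3, which partners Ifit1, lay between 4.38 and 4.51, and Cmpk2, a mitochondrial nucleotide kinase, between 4.63 and 5.10. Together with Usp18 and Ddx60 these were the 6 members under 6 on every array. Rsad2, or viperin, which makes a chain-terminating nucleotide, had 5.61 and 5.46 in TS2, against 6.10 and 5.38 in TS1, and Rsad2 also lies beside Cmpk2 in the genome. Ifit2 had 7.71 and 7.53 in TS2, against 7.54 and 8.02 in TS1. Adar, which edits adenosine in double-stranded RNA, was near equal on all arrays, with 9.23 and 9.30 in TS2, against 9.24 and 9.14 in TS1 (difference 0.07, 95% interval -0.16 to 0.31, adjusted p = 0.667). Eif2ak2, the kinase PKR that halts translation, had 9.14 and 9.08 in TS2, against 8.75 and 8.49 in TS1. It missed the threshold (difference 0.49, SE 0.12, adjusted p = 0.0607) and passed without TS1 A (adjusted p = 0.0414). Samd9l, a translation-blocking factor, had 8.66 and 8.73 in TS2, against 8.96 and 9.33 in TS1 (difference -0.45, adjusted p = 0.113), and passed as higher in TS1 without TS1 A (adjusted p = 0.0400).

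Members of the OAS family, which make or resemble the synthetases of the messenger that activates RNase L, were called higher in TS2 in 3 of 5 cases. The share of all genes called higher in TS2 was 5.05%. Oasl1, which in mouse limits translation of Irf7, had 8.57 and 8.15 in TS2, against 6.82 and 6.80 in TS1. It was 2.93-fold higher in TS2 (SE 0.16 on the log2 scale, adjusted p = 0.00631), and the TS1 duplicates differed by 0.02. Oasl2, its neighbour in the genome, had 7.63 and 7.11 in TS2, against 6.17 and 5.77 in TS1. It was 2.65-fold higher in TS2 (SE 0.22, adjusted p = 0.0207), and it missed the threshold once TS1 B or TS2 A was left out (adjusted p = 0.0733 and 0.0678). Oas3 had 6.44 and 6.56 in TS2, against 5.84 and 5.55 in TS1 (difference 0.81, SE 0.13, adjusted p = 0.0211), and was not called without TS1 B, TS2 A or TS2 B (adjusted p = 0.0523, 0.0846 and 0.109). Oas2 and Oas1a were not called, with differences of 0.21 and 0.08, and Oas1a has close relatives whose RNA its probes may also bind.

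The genes of the ISG15 pathway and the sensors of viral RNA numbered 6. Of these, limma called 0 (13.5% of all genes), while 2 higher in TS2 and 1 higher in TS1 had an unadjusted p under 0.05. Usp18, which removes ISG15 from proteins and damps the type I receptor, had 5.64 and 5.47 in TS2, against 5.73 and 5.33 in TS1. Herc6, the ligase that attaches ISG15 in mouse, had 8.91 and 8.93 in TS2, against 9.63 and 9.23 in TS1 (difference -0.51, SE 0.15, adjusted p = 0.0994), and passed as higher in TS1 without TS1 B (adjusted p = 0.0371). Herc6 was therefore among the 4 members whose TS1 arrays lay above both TS2 arrays. Ddx58, the sensor RIG-I of short double-stranded RNA, had 10.51 and 10.68 in TS2, against 10.07 and 9.48 in TS1. It differed by 0.82 (SE 0.21, adjusted p = 0.0696), by 1.12 without TS1 A (adjusted p = 0.0175) and by 0.52 without TS1 B (adjusted p = 0.094). Dhx58, the regulator LGP2 of these sensors, lay between 5.94 and 6.17 on all arrays. Ifih1 differed by -0.68 with all arrays (adjusted p = 0.505) and by 0.12 without TS1 B (adjusted p = 0.867), so its direction rested on TS1 B.

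The guanylate-binding and immunity-related GTPases had the largest median difference of all the roles, 1.89 over 4 genes. Of these, 2 were called higher in TS2 (5.05% of all genes). In all 4 both TS2 arrays lay above both TS1 arrays (29.1% of all genes). Iigp1, or Irga6, which coats parasite vacuoles, had 7.27 and 6.06 in TS2, against 4.67 and 4.59 in TS1. It was 4.09-fold higher in TS2 (difference 2.03, SE 0.39, adjusted p = 0.0339), although TS2 A exceeded TS2 B 2.32-fold, and it missed the threshold once TS1 A or TS1 B was left out (adjusted p = 0.0960 and 0.117) or a robust prior was used (adjusted p = 0.0582). Gbp3 had 7.87 and 7.25 in TS2, against 6.52 and 5.77 in TS1 (difference 1.42, SE 0.32, adjusted p = 0.0495). The call of Gbp3 was lost after centring (adjusted p = 0.0552), after renewed quantile normalization (adjusted p = 0.0546), with a robust prior (adjusted p = 0.0645) and without TS1 B, TS2 A or TS2 B (adjusted p = 0.121, 0.184 and 0.0771). Gbp7, which lies beside Gbp3 in the genome, and Irgm1 were not called with all arrays. Gbp7 differed by 1.74 (SE 0.49, adjusted p = 0.0863), by 2.50 without TS1 A (adjusted p = 0.00525) and by 0.99 without TS1 B (adjusted p = 0.0460). Irgm1 differed by 2.30 (SE 0.73, adjusted p = 0.111), by 3.44 without TS1 A (adjusted p = 0.00274) and by 1.16 without TS1 B (adjusted p = 0.0308). Set against either TS1 array alone, Gbp7 and Irgm1 were higher in TS2, and the size moved with the TS1 array used. The fits with 1 TS1 array do not count the gap between the TS1 duplicates. The SD of the TS1 duplicates was 1.07 in Gbp7 and 1.61 in Irgm1, against 0.20 and 0.19 in TS2. The guanylate-binding proteins resemble each other in sequence, and how far their probes bind each other's RNA is unknown.

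Of the 3 measured TRIM ubiquitin ligases, 1 was called, in the direction opposite to most members (8.45% of all genes were called higher in TS1). Trim25, which ubiquitinates RIG-I in antiviral signalling, had 9.33 and 9.41 in TS2, against 9.85 and 9.76 in TS1, and was lower in TS2 (difference -0.43, SE 0.09, adjusted p = 0.0438). Trim25 missed the threshold after centring (adjusted p = 0.0612), after renewed quantile normalization (adjusted p = 0.0847) and without TS1 A, TS1 B, TS2 A or TS2 B (adjusted p = 0.110, 0.0843, 0.223 and 0.159). Trim30a differed by 2.18 (SE 0.79, adjusted p = 0.149), by 3.43 without TS1 A (adjusted p = 0.0034) and by 0.94 without TS1 B (adjusted p = 0.0595). Trim21, a cytosolic antibody receptor, had 8.05 and 7.99 in TS2, against 7.64 and 7.03 in TS1 (difference 0.68, adjusted p = 0.104), and passed without TS1 A (adjusted p = 0.0161).

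Parp9, Dtx3l and Parp14 lie side by side in the mouse genome, and Parp9 and Dtx3l encode partners that modify histones and viral proteins. All 3 had TS2 arrays above TS1 arrays (29.1% of all genes), and in each TS1 A was above TS1 B (44.2% of all genes). Dtx3l, the ubiquitin ligase of the pair, had 9.99 and 9.88 in TS2, against 9.40 and 9.17 in TS1, and was called 1.57-fold higher in TS2 (SE 0.12 on the log2 scale, adjusted p = 0.0275). That call was lost without TS1 B, TS2 A or TS2 B (adjusted p = 0.0746, 0.146 and 0.105). Parp9 had 9.38 and 9.26 in TS2, against 8.79 and 8.25 in TS1 (difference 0.80, adjusted p = 0.0612). Parp14, a mono-ADP-ribosyl transferase, had 8.89 and 8.51 in TS2, against 8.01 and 7.43 in TS1 (difference 0.98, adjusted p = 0.0594). Both passed without TS1 A, with adjusted p = 0.0164 for Parp9 and 0.0339 for Parp14.

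Of the 5 other members, 2 were called higher in TS2 (5.05% of all genes). All 5 had TS2 arrays above TS1 arrays (29.1% of all genes). Xaf1, which binds and antagonises the apoptosis inhibitor XIAP, had 7.72 and 7.41 in TS2, against 5.73 and 5.91 in TS1. It was 3.36-fold higher in TS2 (difference 1.75, SE 0.14, adjusted p = 0.00326). Xaf1, Zbp1 and Oasl1 were the 3 members called under all 11 alternative settings, and Xaf1 was the exception among the 10 called higher in TS2, since TS1 A lay between TS1 B and the TS2 arrays in the other 9. Ifi27l2a, a small interferon-induced membrane protein, had 5.97 and 6.05 in TS2, against 5.48 and 5.41 in TS1 (difference 0.56, SE 0.09, adjusted p = 0.0214), and was not called without TS1 B, TS2 A or TS2 B (adjusted p = 0.0719, 0.103 and 0.126). Sp100 differed by 1.95 (SE 0.46, adjusted p = 0.0570), by 2.67 without TS1 A (adjusted p = 0.00212) and by 1.23 without TS1 B (adjusted p = 0.0119). Rtp4, a chaperone of membrane receptors with antiviral activity, had 7.35 and 6.38 in TS2, against 5.81 and 5.59 in TS1 (difference 1.17, adjusted p = 0.0815), and passed without TS2 B (adjusted p = 0.0150). Ifi35 differed by 0.52 with all arrays (SE 0.25, adjusted p = 0.259), by 0.90 without TS1 A (adjusted p = 0.0183) and by 0.14 without TS1 B (adjusted p = 0.462).

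**Figure D3:**
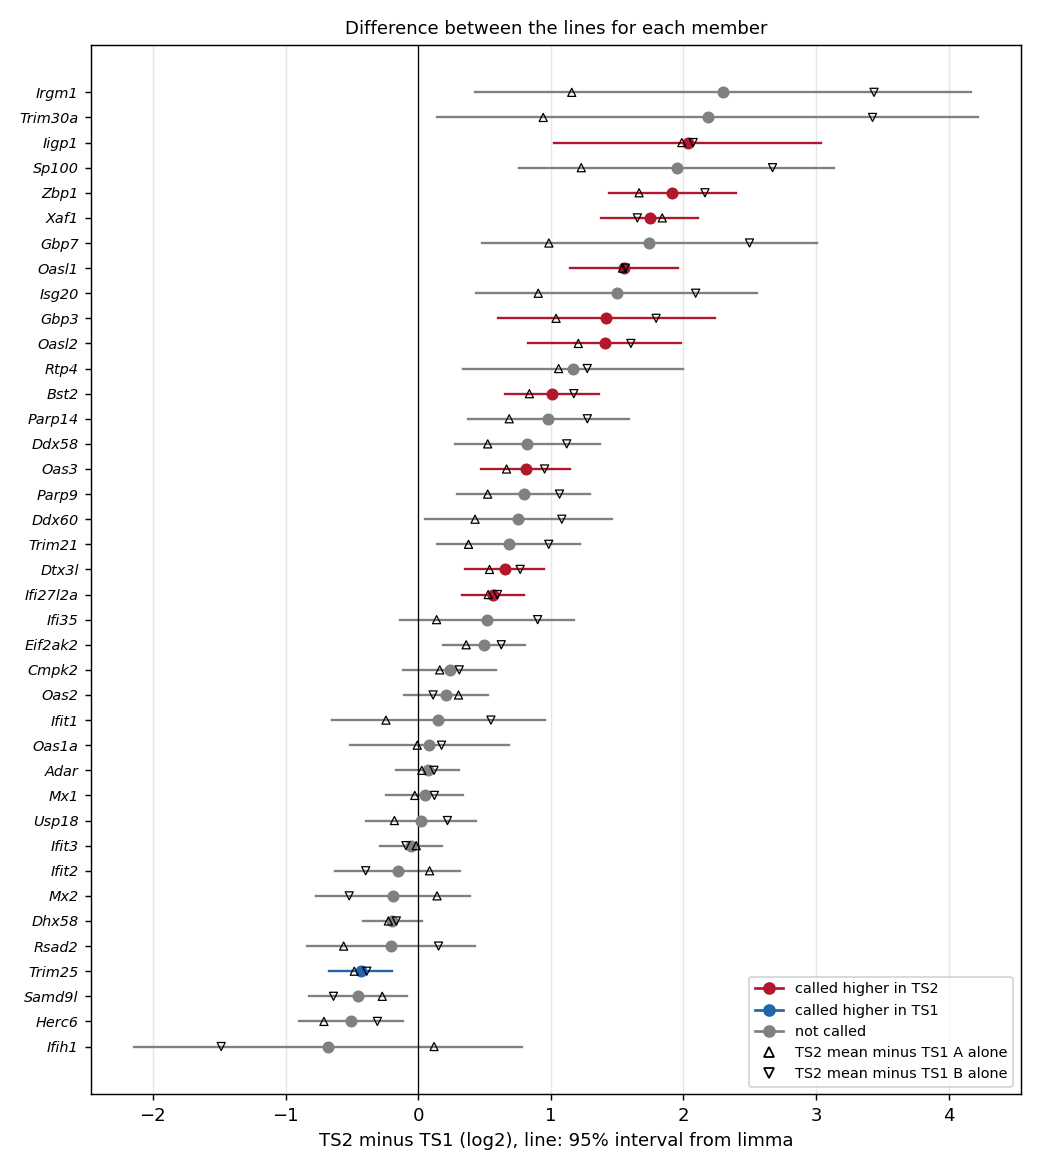
Difference of TS2 minus TS1 on the log2 scale (horizontal axis) for each of the 39 members, with 95% intervals from limma and colour for the call, and open triangles for the TS2 mean set against TS1 A or TS1 B alone. In Irgm1 and Trim30a, the members with the largest differences (2.30 and 2.18), the triangles lie far apart and the intervals are wide, while in Oasl1 and Xaf1 they nearly meet.

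The genes that start and carry the interferon signal varied by role. Of 49 measured genes of interferon ligands, receptors, signalling and nucleic acid sensing, 8 were called higher in TS2 and 0 higher in TS1 (limma, where 14 and 3 had an unadjusted p under 0.05), with a median difference of 0.11, where 13.5% of all genes were called in either direction and 5.05% higher in TS2. The median difference was 0.06 over 16 ligands, 0.24 over 6 receptor chains, 0.45 over 9 signalling genes and 0.06 over 18 sensors and adaptors. Of the 9 signalling genes 4 were called, and in 8 both TS2 arrays lay above both TS1 arrays. That order was found in 21 of the 49 genes and in 29.1% of all genes. The median of TS1 A minus TS1 B over these 49 genes was -0.01, and 0 of them reached a 2-fold difference between the TS1 duplicates. Leaving out TS2 A or TS2 B turned the count of 8 into 2 each time, and leaving out TS1 A or TS1 B into 9 and 3. Among 16 ligands only Ifng was called. Ifng, which encodes interferon gamma, had 7.53 and 7.23 in TS2, against 5.75 on TS1 B and 0.26 more on TS1 A (difference 1.51, SE 0.15, adjusted p = 0.0059). Ifnb1, which encodes interferon beta, lay at 4.36 and 4.51 in TS2 and at 4.29 and 4.18 in TS1 (difference 0.20, adjusted p = 0.278). The interferon alpha genes are nearly identical in sequence and are not described one by one.

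Receptor chains of type I interferon were at similar levels in the lines, and a chain of the gamma receptor was not. Ifnar1 had 9.35 and 9.24 in TS2, against 9.26 and 9.27 in TS1 (difference 0.03, SE 0.09, adjusted p = 0.875), and Ifnar2 had 10.17 and 10.08 in TS2, against 10.28 and 10.38 in TS1 (difference -0.21, adjusted p = 0.225). Ifngr1 had 11.33 and 11.44 in TS2, against 9.83 on TS1 A and 9.10 on TS1 B, so it also showed the order of the antiviral genes (difference 1.92, adjusted p = 0.0121, lost without TS2 A with 0.0558 and without TS2 B with 0.0611). Ifngr2 had 9.73 and 10.04 in TS2, against 9.65 and 9.13 in TS1 (difference 0.49, adjusted p = 0.201). Among the kinases, Jak2 had 9.27 and 9.09 in TS2, against 8.53 and 8.55 in TS1 (difference 0.64, adjusted p = 0.0215), and Tyk2 had 8.95 on both TS2 arrays, against 8.57 and 8.37 in TS1 (difference 0.48, adjusted p = 0.0465). Jak1 had 11.92 and 12.24 in TS2, against 11.67 and 11.73 in TS1, and was not called. Jak2 lost its call without any of the 4 arrays (adjusted p = 0.0628, 0.0707, 0.117 and 0.0612 without TS1 A, TS1 B, TS2 A and TS2 B). Tyk2 missed it after centring (adjusted p = 0.0555), with a trend in the prior variance (adjusted p = 0.0534), and without TS1 B, TS2 A or TS2 B (adjusted p = 0.116, 0.198 and 0.192).

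The transcription factors of the pathway that were measured gave 1 call. Stat2 had 8.50 and 8.42 in TS2, against 8.64 and 8.14 in TS1 (difference 0.07, adjusted p = 0.844), and Irf9 had 8.78 and 8.66 in TS2, against 8.45 and 8.09 in TS1 (difference 0.45, adjusted p = 0.123). Irf9 passed without TS1 A (adjusted p = 0.0494). Irf7, which amplifies type I interferon production, had 6.33 and 6.34 in TS2, against 5.78 and 5.55 in TS1, and was called higher in TS2 (difference 0.68, SE 0.11, adjusted p = 0.0228). The call of Irf7 was lost without TS1 B, TS2 A or TS2 B (adjusted p = 0.0591, 0.117 and 0.114). The feedback inhibitor Socs1 had 9.05 and 9.13 in TS2, against 8.23 and 8.07 in TS1 (difference 0.94, SE 0.10, adjusted p = 0.00724). Socs3 had 9.99 and 10.13 in TS2, against 9.59 and 9.49 in TS1 (difference 0.52, adjusted p = 0.0336), and it missed the threshold with any of the 4 arrays removed (adjusted p = 0.0627 to 0.175). Trex1, the DNA exonuclease named after its values were seen, was the remaining call (difference 0.46, adjusted p = 0.0350).

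**Figure D4:**
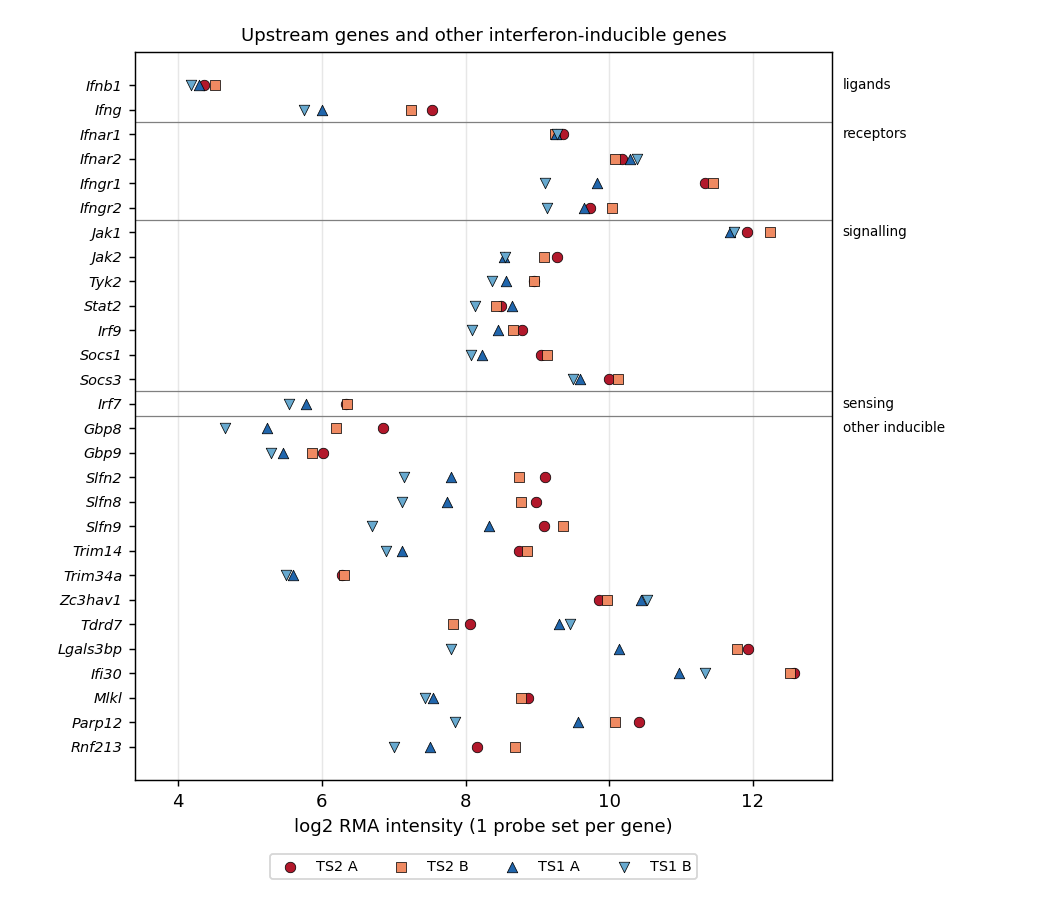
Log2 RMA intensity (horizontal axis) on each of the 4 arrays for named genes upstream of the antiviral genes and for other interferon-inducible genes that were called or differed at least 2-fold between the TS1 duplicates. The type I receptor chains Ifnar1 and Ifnar2 cluster on all arrays, while Lgals3bp, Parp12 and Slfn9 show TS1 A between TS1 B and the TS2 arrays.

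Of 45 measured interferon-inducible genes outside the list, 9 were called higher in TS2 (5.05% of all genes) and 2 higher in TS1 (8.45% of all genes), and both TS2 arrays lay above both TS1 arrays for 28 (29.1% of all genes). Their median difference was 0.50, and the total of 11 calls became 6 and 8 when TS2 A or TS2 B was left out, and 18 and 10 when TS1 A or TS1 B was. TS1 A exceeded TS1 B in 31 of the 45 (44.2% of all genes), and the median of the difference was 0.14 (-0.03 over all genes). TS1 A lay between TS1 B and the TS2 arrays for 22 (14.5% of all genes). Trim14, an adaptor of antiviral signalling, had 8.75 and 8.85 in TS2, against 7.12 and 6.89 in TS1 (difference 1.79, SE 0.12, adjusted p = 0.00179). Slfn2 and Slfn8, members of the Schlafen family of growth and virus regulators, differed by 1.45 (adjusted p = 0.0253) and 1.44 (adjusted p = 0.0191), and both lost their call without TS2 A (adjusted p = 0.116 and 0.0954) and without TS2 B (adjusted p = 0.0673 and 0.0675). Gbp8 differed by 1.59 (adjusted p = 0.0289), not called without TS1 B (adjusted p = 0.0890) or TS2 A (adjusted p = 0.0984). Ifi30, a lysosomal thiol reductase, had 12.57 and 12.52 in TS2, against 10.97 and 11.33 in TS1 (2.63-fold higher, adjusted p = 0.00646). Tdrd7, a tudor domain protein, was lower in TS2, with 8.06 and 7.82 in TS2, against 9.30 and 9.46 in TS1 (difference -1.44, SE 0.12, adjusted p = 0.00391).

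The 3 genes of these 45 with at least 2-fold more signal on TS1 A than TS1 B (0.727% of all genes) are named after their values were seen. On TS1 B, 0 of the 45 were 2-fold higher (0.381% of all genes). Lgals3bp, a secreted galectin ligand, had 11.93 and 11.78 on the TS2 arrays, 10.14 on TS1 A and 7.80 on TS1 B, a 5.07-fold difference between the TS1 duplicates. Parp12, an ADP-ribosyl transferase with antiviral activity, had 10.41 and 10.08 on the TS2 arrays, 9.56 on TS1 A and 7.85 on TS1 B. Slfn9 had 9.10 and 9.35 on the TS2 arrays, 8.33 on TS1 A and 6.70 on TS1 B. All 3 had the TS2 arrays highest, like Trim30a and Irgm1, while TS1 B below TS1 A was set by how these genes were picked. They were not called between the lines with all arrays (adjusted p = 0.0694, 0.148 and 0.105).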

How the data were processed

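Total RNA of 2 TS2 and 2 TS1 duplicates was hybridised to Affymetrix mouse gene arrays, 1 array each. The deposited intensity values came from RMA in Affymetrix Expression Console, per the submitters' processing notes, with versions, filters and library files not given in the sources used here. The intensities were linear, from 5.98 to 23157, where the plan had assumed log2 values, so log2 was taken. RMA hides any change common to most genes. Of 35556 probe sets, 21789 named 1 gene in the platform annotation, and symbols were updated through RefSeq (GRCm38.p6). The brightest single-gene probe set stood for each gene.

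All arrays entered a limma 3.58.1 fit (lmFit and eBayes, R 4.3.3) with line as the factor, 2 residual and 3.03 prior degrees of freedom, tested on simulated data. The number of arrays limits the precision: an exact two-sided permutation test cannot go below 0.333 here. P-values measure the spread between these duplicates, and the labels do not say how separate the cultures were. Signal over background, scan days and slides are not analysed here. Members and gene lists were chosen with earlier results of these data known. Named genes were the called members, the 8 with the largest difference between TS1 A and TS1 B, the 5 brightest (Ddx58, Dtx3l, Trim25, Ifi35 and Adar), up to 6 called genes of each other list and 11 fixed pathway genes, and every member could be named for its role. Alternatives were centring, quantile normalization, a dim filter at 30%, probe set means, a replicate block, other priors and leaving out arrays. The labels name no pairing of arrays by the letters A and B. The r of same-letter deviations was -0.03 across all genes and 0.12 across the 39 members. It cannot exclude a pairing that moved only some genes.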

Additional observations from a re-analysis of the deposited data

How the results depend on the processing

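Each member had 1 single-gene probe set, so averaging probe sets could not move its value. The count of members higher in TS2 stayed within 1.5 times of 10 under the scaling, filter and prior alternatives, and leaving out an array gave 4 to 20. The count higher in TS1 was 0 after centring, after quantile normalization and with the replicate block, and 0 to 1 with an array left out. The replicate block treats the letters as a pairing, which the labels do not name. With it, the members higher in TS2 numbered 10, sharing 8 of the 11 calls, and the upstream calls 3. The calls over all genes were 664 and 1002, against 1006 and 1685 without it. That block ended the calls of Oas3 (adjusted p = 0.0547), Ifi27l2a (0.0590), Trim25 (0.0981), Irf7 (0.0508), Jak2 (0.0519), Socs3 (0.0818) and Tyk2 (0.0868), and Isg20 (0.0352) and Parp14 (0.0235) passed with it. With an array left out, the upstream calls were 2 to 9, the other interferon-inducible calls 6 to 18 and the median member difference 0.43 to 0.90. Centring moved the median of all genes by 0.02 and quantile normalization by 0.01. With an array left out, uncalled differences changed sign in 8 members and in Stat2 and Ifnar1: Ifih1 ranged from -1.48 to 0.12, Ifit1 from -0.24 to 0.55 (-0.11 without TS2 B), Ifit2 from -0.40 to 0.09, Mx1 from -0.04 to 0.14, Mx2 from -0.52 to 0.14, Rsad2 from -0.56 to 0.15, Oas1a from -0.25 to 0.42, Usp18 from -0.18 to 0.22, Stat2 from -0.18 to 0.33 and Ifnar1 from -0.0266 to 0.0865, and the cause was not tested. Over the genes given with full statistics by the naming rule and all settings, 373 values kept direction and side of the threshold, 59 lost a call, 13 gained one and 5 changed sign. Leaving out an array also leaves fewer degrees of freedom, and the lone array is then assumed to vary like the other line. Without detection calls, whether a dim gene was above background is unknown, so its differences may be understated.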
